A study of Caenorhabditis elegans with 8 samples.

Results

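The sca-1 locus of Caenorhabditis elegans is described here through 2 rows of a count table that has 45461 rows in all. The first is K11D9.2, the row of sca-1, a coding gene. The second is K11D9.5, the row of an antisense RNA gene annotated inside sca-1 on the other strand. They were chosen by their counts in these libraries, many on K11D9.5 and few on K11D9.2, so the contrast in level between them is given as a description only and was not tested.

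The sca-1 gene encodes the worm's sarco/endoplasmic reticulum calcium ATPase (SERCA), a P-type ATPase that uses ATP to move calcium from the cytosol into the endoplasmic reticulum. In muscle the same pump refills the sarcoplasmic reticulum and so ends a contraction, and in other cells it keeps the store from which calcium signals are released and on which calcium-binding chaperones depend. Redox state bears on this pump in many animals, because SERCA has cysteines that can be oxidized or joined to glutathione. Natural antisense RNAs are transcripts of the strand opposite a gene, and what K11D9.5 does is not described in the sources used here.

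RNA was measured in whole larvae at the L2 stage that all carried jrIs2[Prpl-17::Grx1-roGFP2] in the N2 strain. This transgene is a fluorescent sensor of the glutathione redox state, driven by the promoter of the ribosomal protein gene rpl-17. The worms fell into a reduced and an oxidized group, with 4 biological replicates in each, numbered 1, 2, 3 and 5, and about 10000 worms in a replicate. They were grown at 20 °C on E. coli OP50, and there was no group without the sensor or without the division by redox state. How worms were assigned to a group is not stated in the labels. The titles name the reduced libraries High and the oxidized ones Low. In replicates 3 and 5 they also tag the reduced library R4 and the oxidized one R5, which cannot be told apart from redox state there.

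Libraries held 635990 to 1089259 counts over 5058 to 7548 rows with a count, and 3 counts, taken as the floor, corresponded to 2.75 to 4.72 CPM (counts scaled to a common library size). Reduced replicate 1 stood apart at this locus, and the source names of the libraries numbered 5 state the reverse of their redox characteristic, title and description, so results are given with and without these libraries where that changes them. Rows of the yolk protein genes vit-1 to vit-6, which the adult intestine expresses, held 2 counts in all 8 libraries, with 5 of the 6 rows at 0. The titles carry dates, June28 for replicates 1 and 2, July7 for replicate 3 and August6 for replicate 5. Beyond these dates and the words biological replicate, the labels do not show whether replicates came from separately grown cultures. The p-values therefore rest on the spread between these libraries.

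In the WBcel235 annotation sca-1 (WBGene00004736) lies on chromosome III from 10811906 to 10816850 on the minus strand, with 4 transcripts and 4088 exon bases, of which 3206 are coding. K11D9.5 (WBGene00194856) lies at 10814376 to 10815128 on the plus strand. Its 2 exons, of 244 and 62 bases, fall within exon 5 of sca-1, counted from the gene's start. With the exons of the 4 transcripts merged, that exon is 2058 bases long and fully coding. All 306 exon bases of K11D9.5 thus lie opposite merged coding sequence of the pump. Which of the 4 transcripts hold the exon was not checked. The intron of K11D9.5, of 447 bases, is opposite the same exon. Which genome build the authors aligned to is unknown here. The libraries were made with a stranded kit, but no source used states the strand setting of the counting, so transcripts of sca-1 and of an antisense gene cannot be told apart from the row names.

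**Figure D1:**
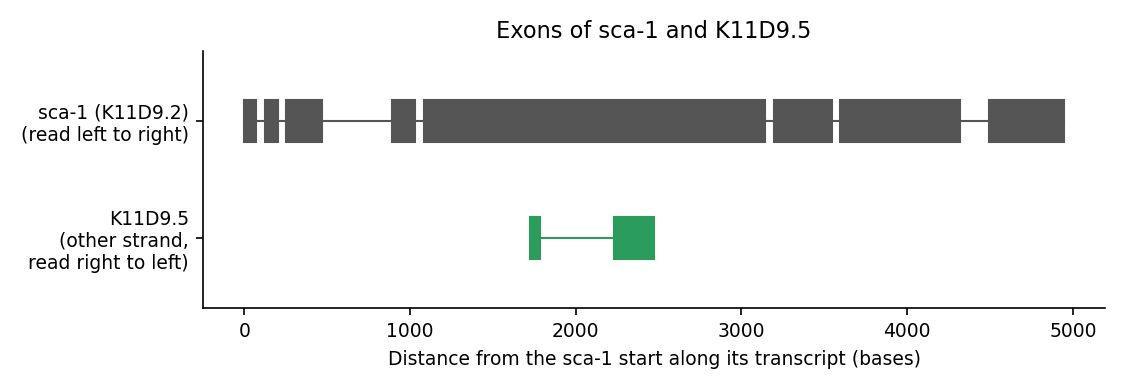
Exons (boxes, merged over transcripts) and introns (lines) of sca-1 and K11D9.5 in WBcel235, to scale, by distance in bases from the sca-1 start along its own transcript. The 244 and 62 base exons of K11D9.5 sit inside the 2058 base exon of sca-1, on the other strand.

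K11D9.5 was an abundant row in every library, and most abundant by far in 1 of them. In the reduced libraries it held 16175 counts in replicate 1, 3817 in replicate 2, 4093 in replicate 3 and 5358 in replicate 5. In the oxidized libraries it held 4300, 4600, 3551 and 6309 counts, in the same order. Reduced replicate 1 was thus the highest of the 8, the other 7 lay within 1.78-fold of each other, and the groups overlapped.

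As a share of the library, K11D9.5 took 1.96% of counts in reduced replicate 1 (exact 95% binomial interval 1.93% to 1.99%) and ranked 10 among all rows there. In the other 7 libraries its share ran from 0.395% in oxidized replicate 1 (0.383% to 0.407%) to 0.95% in oxidized replicate 5 (0.927% to 0.973%), at ranks 19 to 33. The half-widths of these intervals were at most 0.0299 percentage points, and they cover counting error only. The interval of reduced replicate 1 lay clear of all others, while those of replicate 3 in the 2 groups overlapped each other. After TMM scaling, a correction of library sizes for composition, reduced replicate 1 stood at 21547 CPM, 3.81 times the median of the other 7 libraries, which ran from 3865 to 9183 CPM.

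By mean share over the 8 libraries K11D9.5 ranked 17 of all rows, at 0.764% ± 0.511 (SD, n = 8). The rows ranked next to it were K12C11.1, at 0.819% ± 0.213, and R02F11.3, at 0.758% ± 0.352; the range of each overlapped that of K11D9.5. Per exon base, K11D9.5 held 157.5 counts over the 8 libraries and ranked 22 of the 44933 rows that matched a gene. That scale, used here and below, is approximate and does not make rows of very unlike length comparable. Some rows have 21 exon bases, fewer than the 50 nt of a read.

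The row of sca-1 itself was low. It held 67, 45, 17 and 8 counts in reduced replicates 1, 2, 3 and 5, and 14, 18, 11 and 23 in the oxidized replicates. Reduced replicates 1 and 2 were the highest and reduced replicate 5 the lowest, so the oxidized values lay inside the range of the reduced ones. At these counts the precision is poor: the exact 95% Poisson interval was 51.9 to 85.1 counts for reduced replicate 1 and 3.45 to 15.8 for reduced replicate 5. On the TMM-scaled level the row ran from 9.64 to 89.3 CPM. Per exon base the sca-1 row held 0.0497 counts over the 8 libraries. Within a library, K11D9.5 held between 1133 times (reduced replicate 2) and 8948 times (reduced replicate 5) as many counts per exon base as sca-1. These ratios are approximate, since K11D9.5 has 306 exon bases and sca-1 4088.

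**Figure D2:**
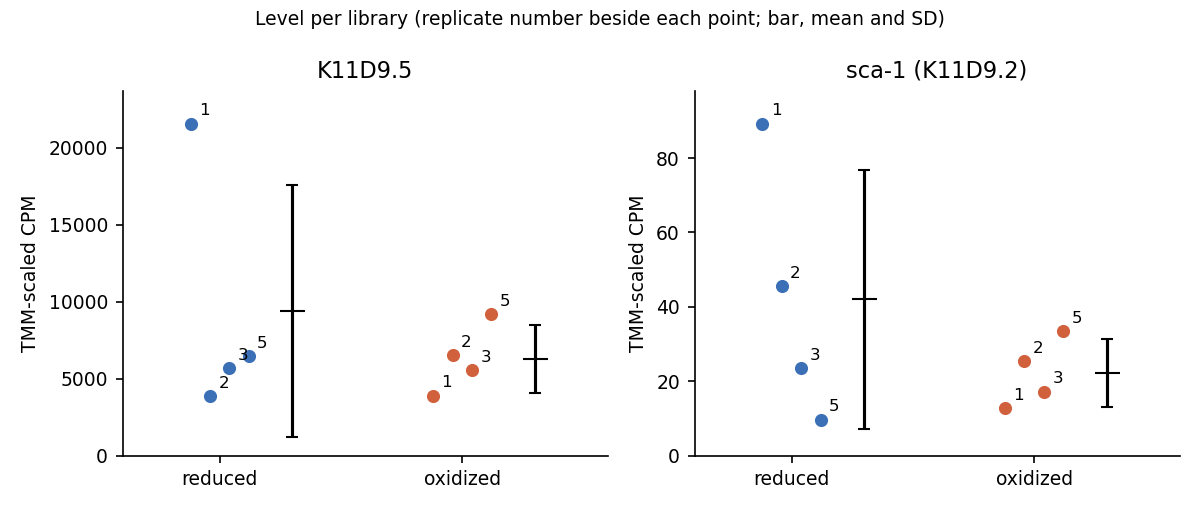
TMM-scaled CPM of K11D9.5 (left) and of the sca-1 row (right) in each library, with the replicate number beside each point and the mean ± SD of each group (n = 4) as a bar. Reduced replicate 1 is the highest library in both panels, at 21547 and 89.3 CPM, and the groups overlap in both.

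The comparison of oxidized with reduced larvae asked whether the locus differs between L2 larvae of a reduced and of an oxidized state. Neither row passed: 0 of the 2 were called, in a comparison that called 0.216% of all rows tested (5 of 2315 by edgeR's quasi-likelihood test, at a Benjamini-Hochberg threshold of 0.05). With the replicate number as a block that comparison called 15 rows, again without either row of the locus. Their unadjusted p-values were 0.178 and 0.159 (edgeR), and DESeq2 and limma voom called neither. In bulk larvae fewer cells of a type and less RNA per cell cannot be told apart, and this holds for each row named here.

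The level of K11D9.5 was 9382 ± 8182 CPM in the reduced group and 6285 ± 2213 CPM in the oxidized group (SD, n = 4). The log2 difference, oxidized minus reduced, was −0.58 (SE 0.42, 95% interval −1.44 to 0.28, edgeR adjusted p = 0.998), which leaves room for a level in oxidized larvae between 0.369 and 1.21 times that in reduced larvae. This direction rested on reduced replicate 1. Without that library the reduced group stood at 5327 ± 1326 CPM (SD, n = 3) and the log2 difference turned to 0.24 (SE 0.30, edgeR adjusted p = 0.949). With the replicate number as a block it was −0.23 (SE 0.39, edgeR adjusted p = 0.997). Without both libraries of replicate 5 it was −0.93 (SE 0.45, unadjusted p = 0.0457, edgeR adjusted p = 0.928), and with their labels exchanged −0.85 (SE 0.41, adjusted p = 0.998).

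Taken replicate by replicate, K11D9.5 did not move one way. In replicate 1 the reduced library held 5.53 times the CPM of the oxidized one. In replicates 2 and 5 the oxidized library was higher, by 1.68 and 1.42 times. In replicate 3 the libraries were at 5662 and 5555 CPM, and as a plain share of the library the order there turned, at 0.548% in reduced and 0.558% in oxidized larvae. By the dates in the titles, the mean log2 difference was −0.86 on June28 (2 libraries against 2), −0.03 on July7 and 0.51 on August6 (1 against 1 each), so no date other than June28 has replicates.

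The share of the library gave the same picture in a test that makes no model of the counts. K11D9.5 took 0.897% ± 0.713 of a reduced library and 0.632% ± 0.233 of an oxidized one (SD, n = 4), a difference of −0.27 percentage points (exact two-sided permutation p = 0.657, adjusted p = 0.657 over the 2 permutation tests made). The smallest p that 70 relabellings can give is 0.0286. Without reduced replicate 1 the difference was 0.0886 percentage points (exact permutation p = 0.686). It was −0.45 percentage points without both libraries of replicate 5 (exact permutation p = 0.7) and −0.42 with their labels exchanged (exact permutation p = 0.343).

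The level of the sca-1 row was 42 ± 34.8 CPM in the reduced group and 22.2 ± 9.19 CPM in the oxidized group (SD, n = 4). The log2 difference was −0.96 (SE 0.66, 95% interval −2.31 to 0.40, edgeR adjusted p = 0.998). The row was lower in the oxidized library in 3 of 4 replicates, by 7.04, 1.79 and 1.37 times in replicates 1, 2 and 3, and higher by 3.47 times in replicate 5, the replicate whose labels conflict. Without both libraries of replicate 5 the log2 difference was −1.53 (SE 0.73, edgeR adjusted p = 0.881), and with their labels exchanged −1.60 (SE 0.63, adjusted p = 0.998). Without reduced replicate 1 it shrank to −0.34 (SE 0.66, adjusted p = 0.957). Its dispersion, a biological coefficient of variation of 65.4%, was at the trend of 65.6% for rows of its abundance, while K11D9.5 at 46.5% varied more than its trend of 37.9%.

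**Figure D3:**
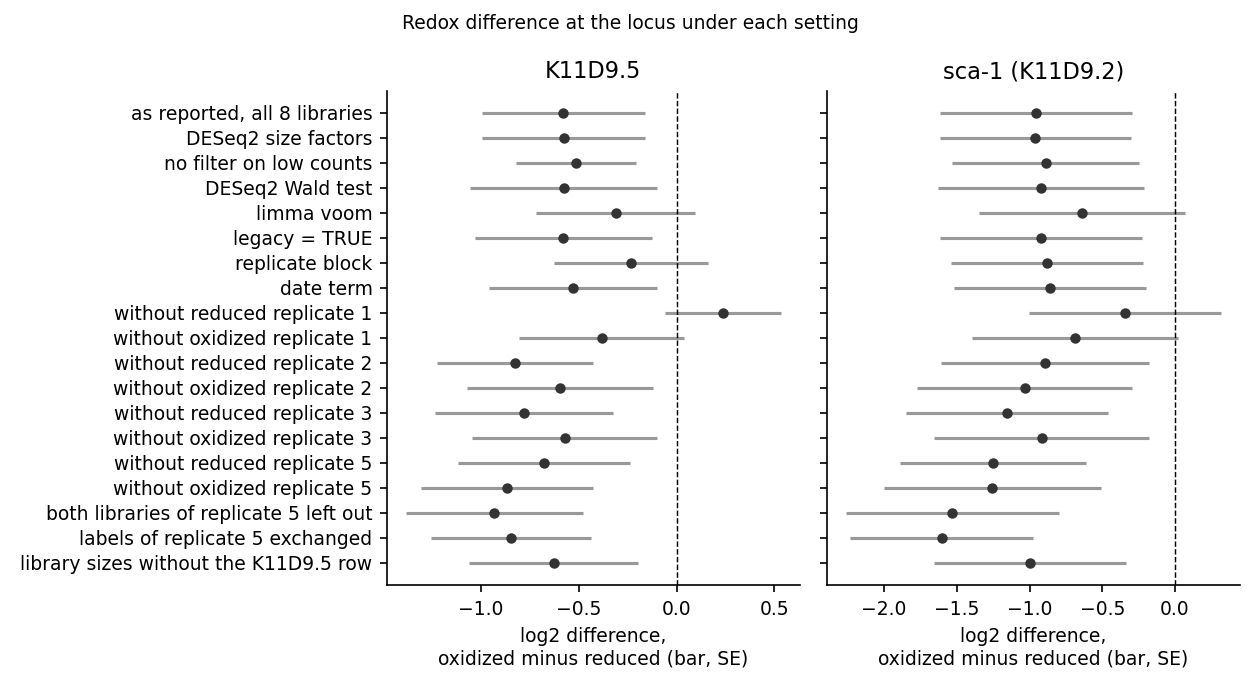
Log2 difference, oxidized minus reduced, of K11D9.5 (left) and the sca-1 row (right) under 19 settings each, with bars for the SE and a dashed line at 0. K11D9.5 lies below 0 in all settings plotted other than the fit without reduced replicate 1 (0.24), and the sca-1 row lies below 0 in all of them (−1.60 to −0.34).

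Whether the 2 rows move apart was read from the share of the locus' counts that fell on the sca-1 row. That share was 0.413%, 1.17%, 0.414% and 0.149% in reduced replicates 1, 2, 3 and 5, and 0.325%, 0.39%, 0.309% and 0.363% in the oxidized replicates. The oxidized libraries lay close together and within the range of the reduced ones, of which replicate 2 was the highest (exact 95% binomial interval 0.851% to 1.56%) and replicate 5 the lowest (0.0644% to 0.294%). In reduced replicate 1, where both rows peaked, the share was near that of reduced replicate 3, with K11D9.5 at 3.81 and the sca-1 row at 3.79 times the median CPM of the other libraries.

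The mean share was 0.535% ± 0.438 for the reduced group and 0.347% ± 0.0368 for the oxidized group (SD, n = 4; difference −0.19 percentage points, exact two-sided permutation p = 0.6, adjusted p = 0.657). The direction turned without reduced replicate 2, to 0.0215 percentage points (exact permutation p = 0.886). Without reduced replicate 5 the difference was −0.32 percentage points at p = 0.0286 by exact permutation, the smallest that test can give. Without both libraries of replicate 5 it was −0.32 percentage points (exact permutation p = 0.1, the smallest that 3 libraries against 3 can give), and with their labels exchanged −0.30 (exact permutation p = 0.0571).

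The high level of K11D9.5 in reduced replicate 1 was shared by some rows and not by most. Of 723 tested rows with a mean of at least 100 CPM, the median row in that library stood at −0.05 on the log2 scale against its own median in the other libraries, 75 rows were over 2-fold higher, and K11D9.5, at 1.93, ranked 8. The 7 rows above it were AC3.16, sbp-1, 21ur-12330, F01G12.16, let-2, C03A7.15 and C54D2.15, named by this rank after their values were seen. The let-2 row, at 5.08 times its median elsewhere, is that of a type IV collagen of basement membranes, and the sbp-1 row, at 6.23 times, is named for a sterol-response transcription factor and overlaps idpc-1 on the other strand.

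Rows most like K11D9.5 across the 8 libraries were named by the highest Pearson correlation of log2(CPM + 0.5) among rows with a mean of at least 100 CPM. The values describe 8 libraries that share their depth and composition between rows, and r is given again without reduced replicate 1. They were F01G12.16 (r = 0.971, Spearman's rho = 0.952; r = 0.904 without that library), ctsa-1.2 (0.963, 1, 0.977), T04C12.30 (0.954, 0.905, 0.908), T04C12.17 (0.951, 0.976, 0.915) and Y24D9A.11 (0.944, 0.929, 0.88). Without reduced replicate 1, ctsa-1.2 ranked 3 in likeness and the others between 21 and 44, so which rows came closest depended on that library.

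Each of these 5 rows also lies opposite another gene. The share of all rows that do so is not given here, so this does not set the 5 apart. T04C12.30 and T04C12.17, both non-coding, share 150 and 122 exon bases with the actin genes act-1 and act-3, whose own rows held 164 and 47 counts against 15626 and 10352. The ctsa-1.2 row, named for a coding gene, shares 66 bases with gpb-1, the beta subunit of heterotrimeric G proteins, whose own row held 233 counts against 33675. F01G12.16 shares 209 bases with F01G12.14, and Y24D9A.11 shares 67 with rpl-7A, a protein of the large ribosomal subunit, and 70 with Y24D9A.10. Actin genes are near-identical in sequence, so how the counting assigned reads among them, and hence their values, is uncertain.

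The 5 rows followed K11D9.5 in reduced replicate 1 to different extents. F01G12.16 stood there at 1548 CPM, 5.4 times its median in the other libraries, T04C12.30 at 6134 CPM (2.8 times), T04C12.17 at 3946 CPM (2.55 times), Y24D9A.11 at 54495 CPM (2.36 times) and ctsa-1.2 at 10013 CPM (2.27 times). None passed between the redox groups, with log2 differences from −0.74 (F01G12.16, SE 0.54) to −0.11 (ctsa-1.2, SE 0.35), each at an edgeR adjusted p of 0.998.

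**Figure D4:**
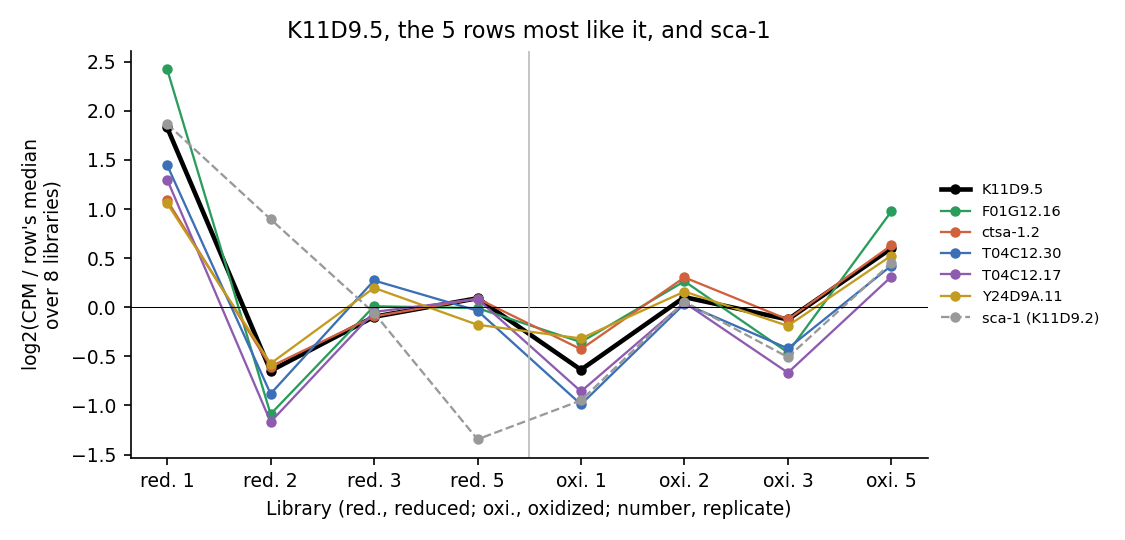
Log2 of CPM over the row's own median of 8 libraries, for K11D9.5 (thick line), the 5 rows most like it, and the sca-1 row (dashed), by library. All 7 rows are highest in reduced replicate 1; in reduced replicate 2 K11D9.5 and the 5 rows are each at their lowest or next to lowest value while the sca-1 row is at 45.6 CPM, its second highest value.

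The locus was then set among all rows of non-coding genes that lie inside the exons of 1 coding gene on the other strand, of which 185 had at least 80 counts in either row. K11D9.5 held the second highest count among them, after F56D12.10 inside vig-1 (84875 counts), and ranked 13 per exon base. Of these nested genes 2 are annotated as antisense RNA, and 58 have at least 100 exon bases. Many of the others are piRNA genes of 21 bases, against 306 for K11D9.5, so ranks per exon base compare rows of unlike length. The ratio of K11D9.5 to its coding partner was 3172 on the scale of counts per exon base over all libraries. It ranked 50 among the 150 pairs whose coding row had a count, with a median of 1448. Of the 185 nested rows, 169 held more counts per exon base than the gene around them. Most pairs reached the 80 counts through the nested row, so this number and the median ratio were largely set by that filter. They do not show how common such an excess is.

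Within these rows the share of K11D9.5 was high in 1 library. It made up 25.8% of all counts of the 185 nested rows in reduced replicate 1, against 8.23% to 12.8% in the other 7 libraries. All nested rows together took 7.59% of that library, close to the 7.4% of oxidized replicate 5 and 7.22% of oxidized replicate 2. Reduced replicate 1 was thus the highest library for both measures, by a small margin for the nested rows together and a large one for K11D9.5. The total of the nested rows includes K11D9.5, so its small margin in that library does not describe the other nested rows.

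**Figure D5:**
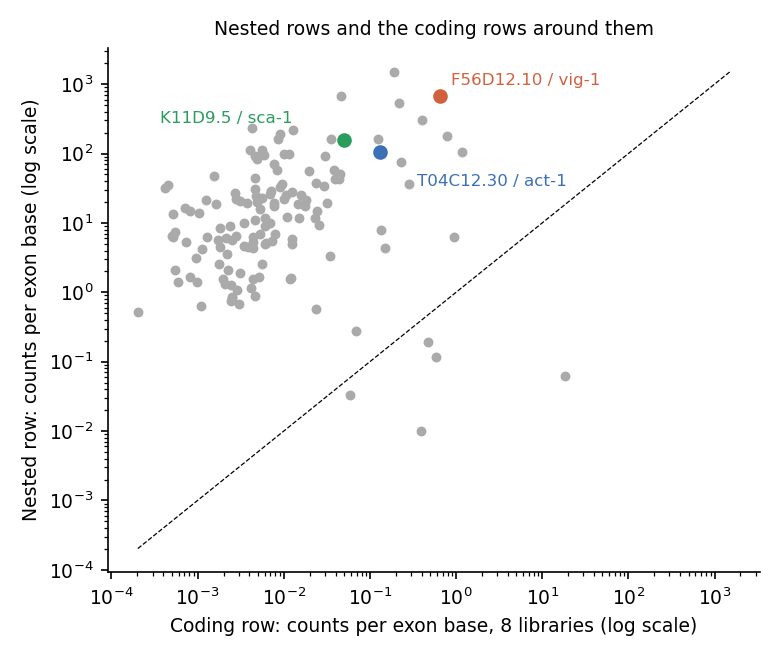
Counts per exon base over the 8 libraries of each nested row against the coding row around it, both on log scales, for the 139 pairs with counts in both rows; the dashed line marks equal values. K11D9.5 and sca-1 (157.5 and 0.0497 counts per exon base) lie far above the line, within the main cloud of pairs and near T04C12.30 with act-1.

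Genes next to the locus had few counts. Within 20000 bases on either side of sca-1 there are 10 other annotated genes, 8 of which matched a row, and those rows held 45 counts together, with 4 of them at 0. Of these, klp-7, a kinesin-13 that starts the disassembly of microtubules and lies 904 bases from sca-1, held 38 counts. K11D9.6, a non-coding gene 74 bases away on the strand of sca-1, held 0 counts.

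Other genes that store and move calcium showed no difference between the redox groups that passed. Of 35 such genes besides sca-1, the own rows of 10 were tested, and 0 were called higher and 0 lower by edgeR. Over all 2315 rows tested 0.216% were called, so 0 of 10 is near that share. Of the 10, 0 had an unadjusted edgeR p under 0.05, against 122 (5.27%) of all 2315 rows tested. By DESeq2 or limma voom 0 of the 10 were called. Their median log2 difference was 0.08, with 5 above and 5 below 0, against −0.05 over all 2315 rows tested. Read from rows on the other strand, 6 rows were tested, and again 0 were called, with a median of 0.13.

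In the endoplasmic reticulum, where SCA-1 pumps calcium, the store's binding proteins did not pass, and their levels overlapped between groups. The crt-1 row, of the calcium-binding chaperone calreticulin, had 1113 ± 303 CPM in reduced larvae and 1301 ± 223 in oxidized ones (SD, n = 4; log2 difference 0.23, SE 0.31). The row of csq-1, the muscle calcium buffer calsequestrin, stood at 21.7 ± 11.7 and 20.3 ± 16.5 CPM (−0.13, SE 0.68), and that of cnx-1, the chaperone calnexin, at 32.3 ± 11.9 and 29.9 ± 21 CPM (−0.04, SE 0.60). The release channels were low: itr-1, the inositol trisphosphate receptor, held 1 count in all, while F33D4.12, opposite it, held 299 (log2 difference −0.38, SE 0.75).

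At the cell surface, the row of ncx-1, a sodium/calcium exchanger, held 14090 counts in all, with 2053 ± 1038 CPM in the reduced group and 2424 ± 533 in the oxidized group (log2 difference 0.24, SE 0.34). Its exons share 53 bases with sec-23, so the row may hold reads of either. The row of mca-3, a plasma membrane calcium pump, had −0.59 (SE 0.78). The own rows of the voltage-gated channels egl-19 and cca-1 held 50 and 28 counts and were not tested. Opposite egl-19, the row of 21ur-15006, a piRNA gene of 21 bases and so shorter than a read, had −0.23 (SE 0.39). The non-coding C48A7.12, also opposite egl-19, had 0.44 (SE 0.45). C54D2.11, opposite cca-1, had 0.18 (SE 0.66). The micu-1 row, of a regulator of the mitochondrial calcium uniporter, had 0.21 (SE 0.43).

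Among proteins that sense calcium, the pat-10 row, of body wall muscle troponin C, had the lowest p of the 4 rows tested and did not pass, at 112 ± 98.9 CPM in the reduced group and 64.7 ± 45.9 in the oxidized group (log2 difference −0.76, SE 0.57, edgeR adjusted p = 0.998). The rows of cmd-1 (calmodulin), unc-43 (the kinase CaMKII) and tax-6 (the calcineurin catalytic subunit) had log2 differences of 0.25 (SE 0.58), 0.60 (SE 0.78) and −0.28 (SE 0.66).

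Of 16 other P-type ATPases, the family SCA-1 belongs to, 3 own rows and 3 rows on the other strand were tested. Of these, 0 were called (edgeR, DESeq2 or limma voom), against 0.216% of all rows tested by edgeR. An unadjusted edgeR p under 0.05 was seen for 0 of them, against 5.27% of all rows tested. The eat-6 row, of the sodium/potassium ATPase alpha subunit, held 82, 57, 9 and 16 counts in reduced replicates 1, 2, 3 and 5, and 36, 7, 10 and 18 in the oxidized replicates. Like the sca-1 row it was highest in reduced replicates 1 and 2, and its log2 difference was −1.17 (SE 0.66, edgeR adjusted p = 0.998). The catp-3 row had −0.95 (SE 0.77), and the tat-4 row, of the phospholipid flippase branch of the family, 0.51 (SE 0.73).

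Summed over each list, the own rows of muscle and of intestine genes were also highest in reduced replicates 1 and 2, though not every gene was: unc-27, pat-10, cpr-1 and ges-1, for example, held more counts in oxidized replicate 1 than in reduced replicate 1. The summed level of 8 body wall muscle genes, a tissue in which sca-1 is known to be abundant, was 2532 and 2123 CPM there, against 728 to 1586 CPM in the other 6 libraries; it ran from 728 to 2532 CPM in the reduced and from 743 to 1586 CPM in the oxidized group, with none of the 8 rows at 0. Of these 8 rows, 0 were called (edgeR, DESeq2 or limma voom), against 0.216% of all rows tested by edgeR. An unadjusted edgeR p under 0.05 was seen for 1 of them, against 5.27% of all rows tested (122 of 2315). A log2 difference below 0 was seen for 8 of 8, with a median of −0.73, against 1254 of all 2315 rows tested. The pat-10 row is among the 8. The summed level of 5 intestine genes was 518 and 368 CPM in reduced replicates 1 and 2. It ran from 85.5 to 518 CPM in the reduced and from 177 to 331 CPM in the oxidized group. This sum was mostly asp-1, which held 1383 of the 1815 counts of the list, so it does not describe the 5 genes as a set. The ifb-2 row was highest in reduced replicate 3 (47 counts), and ges-1 and elt-2 held 20 and 6 counts in all 8 libraries. Reduced replicate 5, lowest for the sca-1 row, was also lowest for both sums. The part of these levels in the values of the sca-1 row was not tested.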

How the data were processed

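The deposited table holds raw counts, 1 column for each library, with no normalization recorded; its name refers to HTSeq, and totals differ between libraries. Per the labels' protocols, 100 ng of rRNA-depleted total RNA went into stranded libraries (15 PCR cycles), read as paired 50 nt ends, although polyA RNA is what the molecule label gives. The submitters' processing notes list Cuffdiff 2.1.1, Cufflinks, Bowtie2 2.2.1, TopHat2 2.0.13 and FastQC 0.11.3. No source used here gives the counting version, its strand setting, the build or the annotation. A further 2 columns match no sample and were not used.

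Groups follow the redox characteristic. Row names were matched to Ensembl's WBcel235 annotation (44933 matched, 528 did not). After filterByExpr and TMM scaling, edgeR 4.0.16 in R 4.3.3 (glmQLFit, robust, legacy = FALSE; glmQLFTest) was run on all 2315 rows kept, without a block, with a Benjamini-Hochberg threshold of 0.05; both rows of the locus were kept. DESeq2 1.42.0, limma 3.58.1 and the replicate block were alternatives. Libraries with the same number carry the same date in the titles, which was taken as pairing them; their deviations from group means correlated at 0.05, −0.11, 0.09 and 0.26.

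The rows, gene lists and tests were chosen with earlier results of these data known. Named were both rows of the locus, up to 4 tested genes per list with the smallest p, neighbours within 20000 bases, and the 5 rows most like K11D9.5. Each list gene was also read from rows that share at least 20 exon bases with it on the other strand. A nested row had at least 90% of its exon bases opposite 1 coding gene.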

Additional observations from a re-analysis of the deposited data

Results flagged for a closer look

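Of 82 groups of 4 values checked for a library far from the others (Dixon's test at 95%), 5 had such a library, and about 4.1 would by chance. In the reduced group K11D9.5 stood at 21547 CPM in replicate 1, against 3865 to 6454 CPM in the others, and its share of that library was 1.96%, against 0.434% to 0.647%. The F01G12.16 row, the one most like K11D9.5 and so chosen for the same library, stood at 1548 CPM in reduced replicate 1, against 136 to 291 CPM. The row of C02E7.16, opposite catp-2, stood at 131 CPM in reduced replicate 5, against 5.53 to 20 CPM. The tat-4 row stood at 34.4 CPM in reduced replicate 2, against 6.02 to 10.7 CPM.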

How the results depend on the processing

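Neither row of the locus passed under any of 18 alternatives (edgeR, DESeq2 or limma voom adjusted p from 0.863 to 1 for K11D9.5 and from 0.778 to 1 for sca-1). The log2 difference of K11D9.5 was below 0 in 17 of them and ran from −0.87 to 0.24 when 1 library was left out, turning without reduced replicate 1; that of sca-1 ran from −1.26 to −0.34. With the replicate block they were −0.23 and −0.88, so the block changed no call at the locus. The share of K11D9.5 differed by −0.42 to 0.0886 percentage points when 1 library was left out, and the share of the locus on the sca-1 row by −0.32 to 0.0215, turning without reduced replicate 2 and reaching the smallest possible p (0.0286) without reduced replicate 5. The 5 calls over all rows became 10 with no filter, 9 with DESeq2, 3 with limma voom, 3 with legacy = TRUE, 15 with the replicate block, 12 with a date term, 3 with library sizes that leave out K11D9.5, 0 with the labels of replicate 5 exchanged, and 1 to 15 with 1 library left out; the cause was not tested. Calcium genes had 0 calls under all 18. At 8 to 67 counts, depth limits what can be said of the sca-1 row.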
